A study of Mus musculus with 9 samples.

Results

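Of the 737 circular RNAs (circRNAs) listed in the 2 deposited tables of RNA immunoprecipitation (RIP) with HuD, 54 come from genes whose symbols begin with the names of chromatin regulators, zinc-finger proteins, transcription cofactors, RNA-binding proteins or translation and decay factors. These 54 circRNAs from 37 genes are described here, out of 14236 circRNA probes on the array. The prefixes were Kdm, Setd, Arid and Hdac for 7 chromatin circRNAs, Zfp for 14, Med and Tcf for 8, Celf, Hnrn, Rbfox and Srsf for 17, and those of translation and decay factors, among them Cpeb, Cnot, Ddx and Eif, for 8. Other prefixes that were searched (Kmt, Chd, Smarc, Phf, Rbm, Elavl, Dhx and Upf) gave no member in the tables as used here. The tables hold circRNAs that were higher in HuD RIP than in 1 of the controls, so the 54 were selected on the measured differences between HuD RIP and either control, which are given below as descriptions without a test. Of the 54, 33 were in both tables, 14 only in the table against IgG RIP and 7 only in the table against WT RIP.

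The study asked which circRNAs are bound by HuD in the adult mouse striatum. HuD RIP used striatum of transgenic C57BL/6J mice (HuD-OE) that carry myc-tagged HuD driven by the Camk2a promoter, which is active mainly in forebrain neurons, and an anti-myc tag antibody. WT RIP used the same antibody on wild type striatum, which lacks the tagged protein. IgG RIP used HuD-OE striatum. Its samples carry the anti-myc antibody in their labels, whereas the study's methods name a non-immune IgG. Each group had 3 RIP assays, and the study describes tissue of 3 mice put together for each immunoprecipitation, which leaves unsaid whether the assays of a group came from separate pools. Every sample was measured on 1 array after RNase R digestion of linear RNA. The amount of each circRNA in the tissue before RIP was not measured on these arrays, so stronger precipitation and a larger amount in HuD-OE tissue cannot be told apart in HuD RIP against WT RIP, nor can fewer cells of a type and less RNA per cell.

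HuD (Elavl4) is a neuronal member of the ELAV-like family that binds AU-rich, U-rich and GU-rich stretches of RNA and often stabilises or promotes translation of its targets. CircRNAs arise when a splice donor joins an upstream acceptor (back-splicing), have no free ends, resist exonucleases and accumulate in neurons. Many chromatin and RNA-binding genes are long, with many exons, and several of their products bind the same AU-rich or GU-rich letters as HuD. An array probe reads a circRNA at its back-splice junction, the only stretch that its linear transcript lacks.

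The tables give 60 bases around each junction. The following are shown because they belong to circRNAs of 1 gene that share a back-splice end, so that the probes differ on 1 side of the junction only. CircRNAs of 1 gene are numbered by start and then end position, and capitals mark the longest run of letters that a circRNA shares with another of its gene. The exception is Zfp148 3, where capitals mark the 30 bases shared with Zfp148 1, and the run shared with Zfp148 2 has 31.
Celf1 1: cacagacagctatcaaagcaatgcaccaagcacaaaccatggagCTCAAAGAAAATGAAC
Celf1 2: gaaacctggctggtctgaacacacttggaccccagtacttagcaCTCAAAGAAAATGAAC
Rbfox2 1: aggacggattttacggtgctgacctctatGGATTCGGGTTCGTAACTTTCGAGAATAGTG
Rbfox2 2: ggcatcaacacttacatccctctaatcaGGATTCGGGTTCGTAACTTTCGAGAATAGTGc
Arid1b 1: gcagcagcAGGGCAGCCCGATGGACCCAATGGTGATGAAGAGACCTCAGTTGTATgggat
Arid1b 2: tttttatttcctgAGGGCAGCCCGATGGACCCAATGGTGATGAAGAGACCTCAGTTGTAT
Zfp609 1: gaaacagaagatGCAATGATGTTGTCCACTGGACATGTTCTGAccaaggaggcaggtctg
Zfp609 2: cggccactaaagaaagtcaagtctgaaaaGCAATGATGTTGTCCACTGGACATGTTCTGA
Zfp148 1: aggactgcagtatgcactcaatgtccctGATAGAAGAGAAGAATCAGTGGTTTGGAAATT
Zfp148 2: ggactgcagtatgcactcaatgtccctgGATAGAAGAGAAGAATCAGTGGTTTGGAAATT
Zfp148 3: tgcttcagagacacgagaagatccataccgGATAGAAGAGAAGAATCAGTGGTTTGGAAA

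Celf1 1 (mmu_circRNA_34018, chr2:90998579-91003890, plus strand) and Celf1 2 (mmu_circRNA_34019, chr2:90998579-91004862, plus strand) start at the same acceptor and differ in the donor. Rbfox2 1 (chr15:77094450-77105669, minus strand) and Rbfox2 2 (chr15:77099239-77105669, minus strand) share their upper coordinate. So do Zfp609 1 (chr9:65730975-65795495, minus strand) and the short Zfp609 2 (chr9:65794621-65795495, minus strand), while both circRNAs of Arid1b (chr17:5040579-5040774 and chr17:5040579-5053617, plus strand) share their start. Zfp148 1 (chr16:33421320-33434974, plus strand) and Zfp148 2 (chr16:33421320-33434975, plus strand) differ by 1 base in their end, share a run of 32 bases and cannot be told apart by hybridisation. Zfp148 3 (chr16:33421320-33468183, plus strand) has the same start and a donor farther downstream. Positions are as the tables give them, which do not state whether a start counts from 0 or 1. The scanner files name an older mouse build for the array design, but 53 of the 54 host transcripts were found in the RefSeq gene table of GRCm38.p6, and all 53 circRNAs lay inside the matched gene there.

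AU-rich letters were few at these junctions. ATTTA, the core of an AU-rich element, stood in the sense strand of 2 of the 54 sequences (3.7%) against 39 of all 737 (5.29%), and TTTTT in 2 (3.7%) against 27 (3.66%). On the other strand the same letters (TAAAT and AAAAA) stood in 3 (5.56%) and 3 (5.56%) of the 54, against 3.8% and 8.41% of all 737. Of the 4 circRNAs with either motif in the sense strand, these are shown with the motif in capitals.
Zfp644 2: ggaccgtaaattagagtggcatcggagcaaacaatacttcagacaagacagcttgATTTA
Rbfox1 1: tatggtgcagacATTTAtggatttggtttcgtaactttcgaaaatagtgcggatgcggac
Ddx3y: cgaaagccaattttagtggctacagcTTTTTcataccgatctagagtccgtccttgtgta
The fourth is Arid1b 2, whose line above begins with TTTTT. The median share of A and T was 55.0% in the 54 and 55.0% in all 737, with a range of 33.3% to 61.7% among the 54. The window holds the junction alone, so nothing follows from it about the rest of each circle.

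Most circles were exonic. Of the 54, 47 were exonic and 7 overlapped exons and introns on the sense strand, and intronic and antisense circles, which made up 20 and 5 of all 737, were absent. The genomic span between both back-splice ends ran from 91 bases in Eif4h to 77765 in Med13l 1, with a median of 8008 against 10358 for all 737. In 10 circRNAs it was under 1000 bases (18.5%, against 8.96% of all listed). These included Celf4 with 172 bases, Hnrnpab 1 with 141, Arid1b 1 with 195 and Hnrnpu 1 with 315.

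The tables also name 5 predicted miRNA sites for each circRNA. Over the 54 circRNAs 216 miRNAs were named, 171 of them for 1 circRNA only. The most frequent was mmu-miR-6958-3p, named for 4 of the 54, against 14 of all 737, with Celf2, Celf4 and Rbfox2 among the 4. Of the miRNAs named most often over all 737, mmu-miR-1903 was named for Zfp451, Zfp462 and Hnrnpul2 (3 of 54, against 61 of 737) and mmu-miR-7092-3p for Zfp106, Celf1 and Hnrnpd (3 of 54, against 54 of 737). Their mature sequences in RefSeq are shown with the seed (bases 2 to 8) in capitals, and the seeds differ from each other.
mmu-miR-6958-3p: uCAGCUGCcucuugccaucacag
mmu-miR-1903: cCUUCUUCuucuuccugagaca
mmu-miR-7092-3p: uGUUCUUUguuuuguuugccuuag

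Signals below are scaled log2 signals, the log2 of the processed signal minus the array's 75th percentile over the 2594 probes well above background on all 9 arrays. A value of 0 equals that percentile, and triples of values are in the order of replicates 1, 2 and 3. Probes hybridise with different strength, so the signals of 1 circRNA are compared between arrays and not with those of another. The arrays themselves differed. Before scaling, the 75th percentile of detected probes was 6.49 ± 0.58 (SD, n = 3) in HuD RIP, 5.70 ± 0.332 in WT RIP and 5.08 ± 0.179 in IgG RIP, so that brightness moved with the group. WT RIP 1 stood apart from the other WT RIP arrays. It had 44.6% of all probes well above background, against 25.4% and 31.7%, and its part in the results is given beside each count below. IgG RIP 3 had a scan date that no other array had, and was taken from this to lie alone on a slide. The WT RIP arrays with HuD RIP 1 lay in the row of the slide opposite to the others. No row held both WT RIP and IgG RIP arrays, so a fit with row as a block rests on the HuD RIP arrays, which lay in both.

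All 54 circRNAs were well above background on each HuD RIP array. On the WT RIP arrays 46, 14 and 18 of the 54 were, and on the IgG RIP arrays 17, 17 and 14. Only 10 of the 54 were measured on all 9 arrays: Zfp106 2, Zfp426, Tcf25 1, Tcf4 2, both circRNAs of Celf1, Celf2, Celf4, Hnrnpul1 and Rbfox1 2. At the other end, 7 were well above background on no control array, among them Hdac2, Setd7, Cnot2 1, Cnot2 3, Cnot7 and Cpeb2. On WT RIP 2 and WT RIP 3, 19 and 12 of the 54 lay at the lowest value that the scanner software gives, where values have no order.

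**Figure D1:**
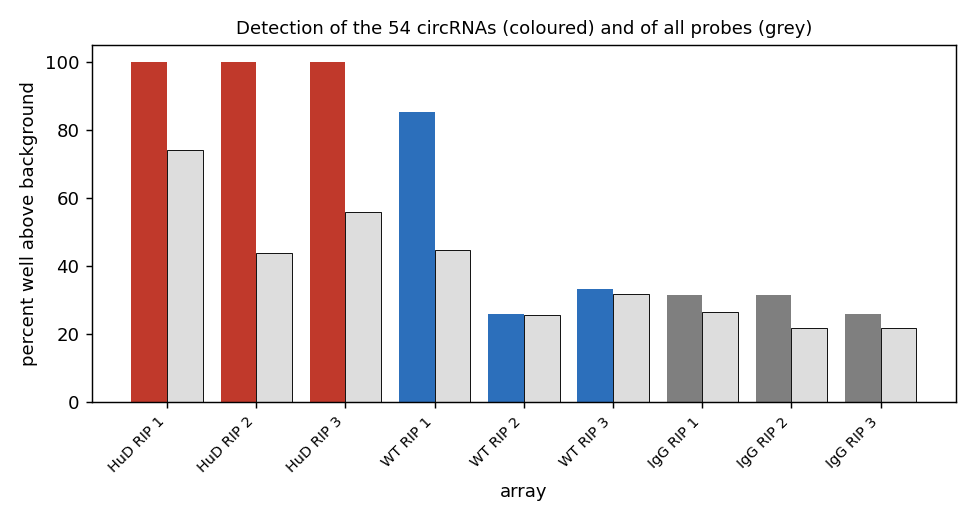
Percent of the 54 circRNAs (coloured by group) and of all probes (grey) that were well above background on each array (x axis). All 54 were detected on the HuD RIP arrays, 46 on WT RIP 1, and 14 to 18 on the other control arrays.

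The tables did not compare the controls with each other, although both entered the choice of the 54. Only 18 of the 54 were detected in both controls, on 1 array or more of each. For the others at least 1 side of WT RIP against IgG RIP was not above background, and a count of 0 says little about them. With limma and Benjamini-Hochberg adjustment over 6871 probes, 0 of the 54 passed (background 0.0146% of probes, 1 of 6871), and 1 of the 54 had an unadjusted p under 0.05 (background 6.51%). That circRNA was Zfp426, from a zinc-finger gene, with a WT RIP minus IgG RIP difference of 1.56 ± 0.47 (log2 ± SE, n = 3 and 3, limma adjusted p = 0.564). The median difference of the 54 was 0.11, against 0.06 over all probes tested, with 31 above 0 and 23 below (27 and 27 with scaling on all probes, 1 and 53 with normexp, 48 and 6 without scaling, 7 and 47 with the row on the slide as a block, and 6 and 48 with each array's 75th percentile as a covariate). The methods' t-test gave 0 adjusted and 2 unadjusted. The SE had a median of 0.6 and reached 0.977, and the number of arrays, 3 in each group, limits this precision. Without WT RIP 1 the median was -0.45, with 16 above 0, and again 0 passed.

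Hnrnpu 2 had the lowest value, -1.17 ± 0.98 (limma adjusted p = 0.979), with 1 WT RIP array and all IgG RIP arrays well above background. The values of Zfp609 1 (1.42 ± 0.72, adjusted p = 0.85) and Rbfox2 2 (1.30 ± 0.70, adjusted p = 0.869) were high, but neither was well above background on an IgG RIP array. Among those measured on all 9 arrays, Zfp426 and Celf2 were higher on every WT RIP array than on any IgG RIP array. Of all 54, 3 were higher in this way, Rbfox2 2 being the other, and 1, Cnot7, was lower. Cnot7 was well above background on no control array, and WT RIP 2 and WT RIP 3 lay at the lowest value of the scanner software. Its order is therefore not a measured difference. Over the 6871 probes tested 562 were higher and 596 lower without overlap. A p over the threshold does not show that the controls were alike.

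**Figure D2:**
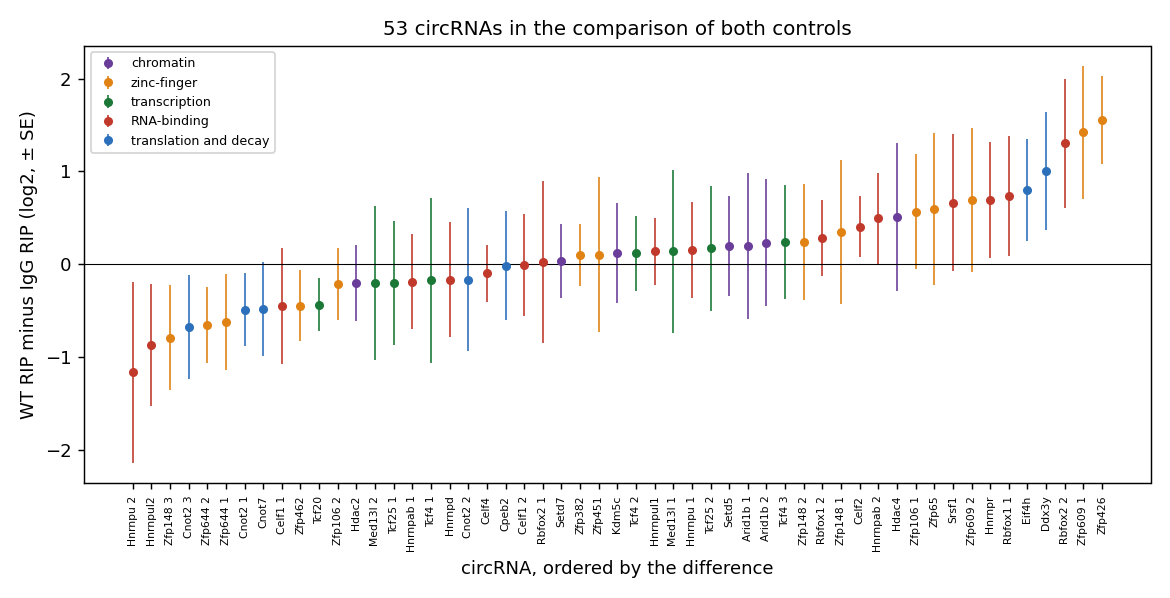
WT RIP minus IgG RIP (log2, y axis, bars ± SE, n = 3 and 3) for 53 of the 54 circRNAs, ordered by the difference and coloured by role. Of all 54, 31 were above 0 and 23 below (1 and 53 with normexp, 48 and 6 without scaling). Many values rest on signals that were not well above background. Zfp426 stands at the upper end with 1.56 and Hnrnpu 2 at the lower end with -1.17, and none passed the test.

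Against the controls, HuD RIP was higher for all 54 circRNAs, as their choice set it (with normexp background correction, 3 of 54 fell below 0 against WT RIP and 15 against IgG RIP, with scaling on all probes 1 against WT RIP, and with each array's 75th percentile as a covariate 1 and 9). For the 35 on no IgG RIP array and the 8 on no WT RIP array the control value is not a measured level, and the ranges include such values. Only bounds can be given for their sizes. These apply to the scaling and background correction used here and carry no sampling error. The median HuD RIP minus WT RIP difference was 2.80 and ran from 0.58 to 5.24, beside 0.35 over all probes tested and 2.87 over the 737 listed. HuD RIP minus IgG RIP had a median of 2.93 and ran from 1.43 to 5.83, beside 0.52 over all probes and 2.98 over the 737. Both comparisons share the HuD RIP arrays. In limma, 44 of the 54 passed in favour of HuD RIP over WT RIP at an adjusted p under 0.05 (background 15.0% of 6871 probes) and 51 passed over IgG RIP (background 22.0%), 42 of them in both (background 13.3%). The arrays did not overlap for 47 against WT RIP (background 21.7%) and for 54 against IgG RIP (background 34.8%). Since these comparisons chose the circRNAs, nothing is read from the counts. With each array's 75th percentile as a covariate, 13 passed against WT RIP and 0 against IgG RIP (12 unadjusted), and with normexp 13 and 17 did. Over all 6871 probes, 342 and 68 passed with the covariate, and 130 and 347 with normexp. Scaling on all probes moved the median of all probes to -0.36 against WT RIP and -0.29 against IgG RIP. The 54 circRNAs stood above the median of all probes by a median of 2.46 and 2.41. A scaling that subtracts 1 value per array leaves this distance unchanged by construction. Other processing moved it, to 0.69 and 0.63 with normexp and 0.79 and 0.76 with uncorrected, quantile-normalised signals. It was 1.82 and 1.1 with the covariate, and 2.54 and 2.76 with quantile normalization.

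Replicates within HuD RIP kept an order that was shared by most circRNAs. HuD RIP 1 gave the highest value for 43 of the 54 (572 of all 737) and HuD RIP 3 for 11 (157 of all 737). HuD RIP 2 gave the lowest for 50. The medians over all probes tested had the same order, with -1.68, -2.44 and -2.08 in HuD RIP 1, 2 and 3. WT RIP 1 gave the highest WT RIP value for 47 of the 54 and for 592 of all 737. Leaving it out raised the median HuD RIP minus WT RIP difference to 3.43 and the number passing to 48. Over all 6871 probes the number passing rose from 1033 to 1560. The 7 circRNAs whose HuD RIP and WT RIP arrays overlapped were Hdac4, Zfp426, both circRNAs of Zfp609, Med13l 1, Tcf4 1 and Rbfox1 1.

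**Figure D3:**
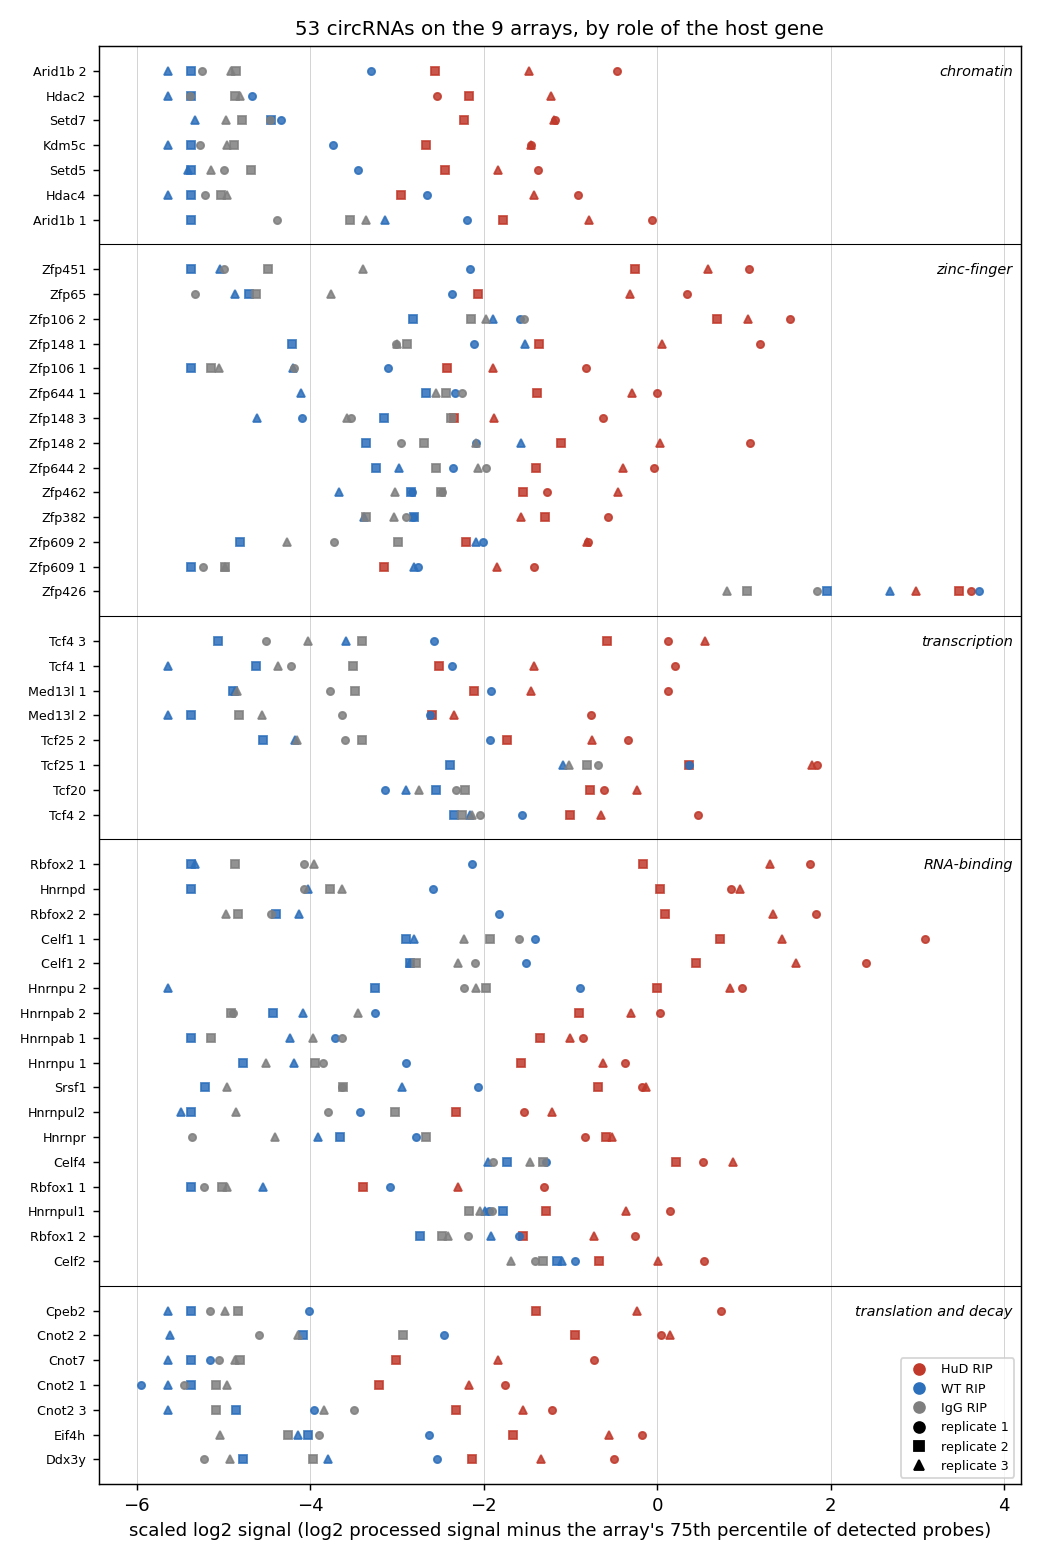
Scaled log2 signal (x axis) of 53 of the 54 circRNAs on the 9 arrays, with colours for the groups and symbols for the replicates, in blocks by role of the host gene and ordered within a block by HuD RIP minus WT RIP. The HuD RIP mean lies to the right of both control means in each row, WT RIP 1 (blue circles) often lies between HuD RIP and the other control arrays, and Zfp426 is the row where a WT RIP array passes all HuD RIP arrays.

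The tables list no circRNA under a 1.5-fold difference of the authors' own normalised log2 values. The circRNAs nearest to that limit were Rbfox1 2 with a difference of 0.592 and Cnot2 1 with 0.597 against IgG RIP, and Hnrnpul2 with 0.622 and Hnrnpul1 with 0.623 against WT RIP. For the 14 circRNAs outside the WT RIP table, the HuD RIP minus WT RIP difference computed here ran from 0.58 to 2.97 with a median of 2.35, and for the 40 inside it from 1.40 to 5.24 with a median of 3.11. For the 7 outside the IgG RIP table, HuD RIP minus IgG RIP ran from 1.54 to 3.05, and for the 47 inside from 1.43 to 5.83. Other circRNAs of the same genes have no gene name outside the tables and were not analysed here.

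The 7 chromatin circRNAs had HuD RIP minus WT RIP differences from 2.69 to 3.27 and HuD RIP minus IgG RIP differences from 2.89 to 3.50. None was well above background on any IgG RIP array. The junctions of both histone deacetylases are shown because the study also names these genes.
Hdac2: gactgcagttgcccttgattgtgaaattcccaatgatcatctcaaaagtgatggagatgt
Hdac4: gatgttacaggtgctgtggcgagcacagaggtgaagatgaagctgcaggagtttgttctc

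Hdac2 (chr10:36993775-36997129, plus strand) encodes a class I histone deacetylase that represses transcription and has been linked to synaptic plasticity. Its scaled signals were -2.54, -2.17 and -1.23 in HuD RIP, -4.67, -5.37 and -5.64 in WT RIP and -5.38, -4.87 and -4.81 in IgG RIP. HuD RIP 3 was the highest array, unlike the usual order. Hdac2 was not well above background on any control array, so HuD RIP was at least 3.14-fold higher than WT RIP and at least 1.98-fold higher than IgG RIP. Such bounds set the mean of HuD RIP against the mean, over the control arrays, of the higher of the lowest signal measured well above background and the circRNA's own signal. They depend on the processing: with normexp, HuD RIP minus IgG RIP was -0.13 for Hdac2.

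Hdac4 (chr1:91991482-92002275, minus strand) encodes a class IIa deacetylase that shuttles between cytoplasm and nucleus in neurons. It had -0.91, -2.95 and -1.42 in HuD RIP, -2.65, -5.37 and -5.64 in WT RIP and -5.21, -5.02 and -4.96 in IgG RIP. WT RIP 1 lay above HuD RIP 2, so those groups overlapped, and Hdac4 stood only in the table against IgG RIP. The HuD RIP minus WT RIP difference was 2.79 ± 0.80 (log2 ± SE) and became 3.75 without WT RIP 1. HuD RIP was at least 2.3-fold higher than IgG RIP.

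Arid1b encodes a subunit of the BAF chromatin-remodelling complex, and its circRNAs span 195 and 13038 bases from a shared start. Arid1b 1 had -0.06, -1.78 and -0.79 in HuD RIP, -2.19, -5.37 and -3.14 in WT RIP and -4.38, -3.54 and -3.36 in IgG RIP. For Arid1b 2 the values were -0.47, -2.56 and -1.48 in HuD RIP, -3.30, -5.37 and -5.64 in WT RIP and -5.25, -4.85 and -4.91 in IgG RIP. The HuD RIP minus WT RIP differences were 2.69 ± 0.78 and 3.27 ± 0.69, closer together than 1 SE of either.

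Setd7, an enzyme that adds a single methyl group to histone H3 lysine and to other proteins, had -1.18, -2.23 and -1.19 in HuD RIP, -4.33, -4.45 and -5.33 in WT RIP and -4.46, -4.79 and -4.97 in IgG RIP. No array of the controls came near HuD RIP, and the bounds were at least 4.26-fold over WT RIP and at least 2.69-fold over IgG RIP. Kdm5c, an X-linked histone H3 lysine demethylase, and Setd5, a SET-domain regulator of chromatin, had HuD RIP minus WT RIP differences of 3.06 ± 0.54 and 2.86 ± 0.54. Both were well above background on 1 control array, of WT RIP.

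The 14 zinc-finger circRNAs had HuD RIP minus WT RIP differences from 0.58 to 4.65 and HuD RIP minus IgG RIP differences from 1.55 to 4.75. Zfp426 and Zfp451 were at the ends of the range against WT RIP.
Zfp451: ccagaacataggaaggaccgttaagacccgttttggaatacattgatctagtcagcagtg
Zfp426: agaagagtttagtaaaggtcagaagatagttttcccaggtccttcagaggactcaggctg

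Zfp451 (chr1:33776268-33805419, minus strand) encodes a SUMO ligase. Its values were 1.05, -0.26 and 0.58 in HuD RIP, -2.15, -5.37 and -5.04 in WT RIP and -5.00, -4.48 and -3.39 in IgG RIP. WT RIP 1 was the nearest control array. The difference from WT RIP was 4.65 ± 0.83, or 5.67 without WT RIP 1, and HuD RIP was at least 10.7-fold higher than IgG RIP.

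Zfp426 (chr9:20473027-20476478, minus strand), a KRAB-type zinc-finger gene, had 3.62, 3.48 and 2.98 in HuD RIP, 3.71, 1.95 and 2.69 in WT RIP and 1.84, 1.03 and 0.81 in IgG RIP. It was measured on all 9 arrays, and WT RIP 1 was the highest of them. The difference was 0.58 ± 0.47 from WT RIP, with overlapping arrays, and 2.13 ± 0.47 from IgG RIP, where all HuD RIP arrays lay above. With scaling on all probes the difference from WT RIP fell below 0. Without WT RIP 1 it was 1.04.

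Zfp609 encodes a regulator of gene expression in neural progenitors, and its short circRNA spans 874 bases. Zfp609 1 had -1.42, -3.14 and -1.84 in HuD RIP, -2.76, -5.37 and -2.81 in WT RIP and -5.23, -4.98 and -4.98 in IgG RIP. Zfp609 2 had -0.80, -2.20 and -0.81 in HuD RIP, -2.01, -4.81 and -2.08 in WT RIP and -3.72, -2.99 and -4.26 in IgG RIP. In both, WT RIP 1 and WT RIP 3 lay above HuD RIP 2 and below the other HuD RIP arrays, and WT RIP 2 was low. Neither was in the table against WT RIP, and the differences from it were 1.51 ± 0.72 and 1.69 ± 0.77.

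Zfp148 encodes a GC-box binding transcription factor. Zfp148 1 had 1.19, -1.36 and 0.06 in HuD RIP, -2.12, -4.21 and -1.53 in WT RIP and -3.01, -2.89 and -3.0 in IgG RIP, and Zfp148 2 had 1.07, -1.11 and 0.03 in HuD RIP, -2.09, -3.35 and -1.57 in WT RIP and -2.96, -2.69 and -2.09 in IgG RIP. Both had the same order of HuD RIP arrays and the same order of WT RIP arrays. Zfp148 3 had -0.62, -2.34 and -1.88 in HuD RIP, -4.09, -3.15 and -4.62 in WT RIP and -3.53, -2.37 and -3.57 in IgG RIP, and its HuD RIP 2 value lay only just above the highest IgG RIP array. It stood only in the table against WT RIP, where HuD RIP was at least 3.96-fold higher.

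Zfp106 encodes an RNA-binding zinc-finger protein needed by motor neurons, with 2 circRNAs that do not overlap. Zfp106 1 had -0.82, -2.42 and -1.90 in HuD RIP, -3.11, -5.37 and -4.20 in WT RIP and -4.18, -5.15 and -5.05 in IgG RIP. Zfp106 2, measured on all 9 arrays, had 1.53, 0.69 and 1.05 in HuD RIP, -1.58, -2.81 and -1.89 in WT RIP and -1.54, -2.14 and -1.97 in IgG RIP. Its differences were 3.19 ± 0.39 from WT RIP and 2.97 ± 0.39 from IgG RIP, and none of its control arrays came within 2 of a HuD RIP array.

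Zfp644 encodes a zinc-finger protein, and its circRNAs share the lower coordinate. Zfp644 1 had 0.00, -1.38 and -0.29 in HuD RIP, -2.33, -2.67 and -4.11 in WT RIP and -2.25, -2.44 and -2.54 in IgG RIP. Zfp644 2 had -0.03, -1.39 and -0.39 in HuD RIP, -2.35, -3.25 and -2.97 in WT RIP and -1.97, -2.55 and -2.06 in IgG RIP. HuD RIP lay above every control array in both. The remaining zinc-finger circRNAs, of Zfp382, Zfp462 and Zfp65, had HuD RIP minus WT RIP differences of 1.85 ± 0.33, 2.02 ± 0.38 and 3.30 ± 0.82.

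The 8 circRNAs of Med and Tcf genes had HuD RIP minus WT RIP differences from 1.63 to 3.78. Arrays did not overlap in 6 (background 21.7% of all probes tested, and 618 of the 737 listed). Med13l encodes a subunit of the kinase module of Mediator, a complex that joins transcription factors to RNA polymerase. Med13l 1, the longest span among the 54, had 0.12, -2.11 and -1.46 in HuD RIP, -1.92, -4.89 and -4.87 in WT RIP and -3.77, -3.48 and -4.84 in IgG RIP. Med13l 2 had -0.77, -2.60 and -2.35 in HuD RIP, -2.62, -5.37 and -5.64 in WT RIP and -3.63, -4.82 and -4.56 in IgG RIP. WT RIP 1 lay above HuD RIP 2 for Med13l 1 and just below it for Med13l 2, and without it the differences from WT RIP were 3.73 and 3.60, in place of 2.74 and 2.64.

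Tcf4 encodes a basic helix-loop-helix factor of neuronal development, and gave 3 circRNAs. Tcf4 1 had 0.20, -2.52 and -1.42 in HuD RIP, -2.37, -4.62 and -5.64 in WT RIP and -4.22, -3.51 and -4.37 in IgG RIP. Tcf4 2 had 0.47, -1.01 and -0.65 in HuD RIP, -1.56, -2.34 and -2.16 in WT RIP and -2.04, -2.25 and -2.13 in IgG RIP. Tcf4 2 was well above background on all arrays and Tcf4 1 on a single control array. Tcf4 3 had 0.13, -0.58 and 0.55 in HuD RIP, -2.58, -5.06 and -3.59 in WT RIP and -4.51, -3.41 and -4.02 in IgG RIP. Tcf4 2 differed by 1.63 ± 0.41 from WT RIP and by 1.75 ± 0.41 from IgG RIP. Neither Tcf4 1 nor Tcf4 3 was well above background on an IgG RIP array, and HuD RIP was at least 3.29-fold and at least 7.97-fold higher there.

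Tcf25, named as a transcription factor and known for its part in ribosome quality control, gave a longer circRNA that encloses a shorter one. Tcf25 1 had 1.84, 0.37 and 1.78 in HuD RIP, 0.37, -2.38 and -1.09 in WT RIP and -0.68, -0.80 and -1.02 in IgG RIP. Tcf25 2 had -0.33, -1.73 and -0.75 in HuD RIP, -1.93, -4.54 and -4.17 in WT RIP and -3.60, -3.40 and -4.15 in IgG RIP. HuD RIP 2 and WT RIP 1 of Tcf25 1 had the same rounded value. Tcf20, a transcriptional coregulator, had the smallest SE of all 54, with 2.32 ± 0.29 from WT RIP.

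The 17 circRNAs of Celf, Hnrn, Rbfox and Srsf genes held values from both ends of the range. HuD RIP minus WT RIP ran from 1.03 in Celf2 to 5.24 in Rbfox2 1, and HuD RIP minus IgG RIP from 1.43 to 5.83 in the same genes, the upper ends set against controls that were not well above background on most arrays. Rbfox1 and Rbfox2 encode splicing factors that bind GCAUG and control neuronal exons. Rbfox2 1 had 1.76, -0.16 and 1.30 in HuD RIP, -2.13, -5.37 and -5.33 in WT RIP and -4.07, -4.87 and -3.96 in IgG RIP. Rbfox2 2 had 1.83, 0.09 and 1.33 in HuD RIP, -1.83, -4.40 and -4.13 in WT RIP and -4.45, -4.83 and -4.97 in IgG RIP. HuD RIP stood well apart from every control array, with WT RIP 1 the nearest. Each was well above background on 1 WT RIP array, the differences from WT RIP were 5.24 ± 0.87 and 4.53 ± 0.70, and HuD RIP was at least 15.2-fold and at least 16.5-fold higher than IgG RIP.

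The circRNAs of Rbfox1 gave smaller differences. Rbfox1 1 had -1.30, -3.39 and -2.30 in HuD RIP, -3.07, -5.37 and -4.54 in WT RIP and -5.22, -5.02 and -4.95 in IgG RIP. Rbfox1 2 had -0.26, -1.55 and -0.72 in HuD RIP, -1.59, -2.73 and -1.91 in WT RIP and -2.18, -2.48 and -2.41 in IgG RIP. Both stood in the table against IgG RIP alone. The junction sequences of Rbfox1 1 and Rbfox2 1 were identical at 42 of 49 aligned bases (85.7%), and whether the probe of either also takes RNA of the other was not tested. No other 2 circRNAs of different genes among the 54 passed 66.0%.

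Celf1, Celf2 and Celf4 encode CUG-binding and GU-binding proteins that act on splicing and mRNA decay. Celf1 1 had 3.09, 0.73 and 1.44 in HuD RIP, -1.41, -2.89 and -2.80 in WT RIP and -1.59, -1.93 and -2.23 in IgG RIP. Celf1 2 had 2.40, 0.45 and 1.60 in HuD RIP, -1.51, -2.85 and -2.85 in WT RIP and -2.10, -2.78 and -2.30 in IgG RIP. In both, the lowest HuD RIP array lay well above the highest control array, on signals that were measured on all 9. The differences were 4.12 ± 0.62 and 3.89 ± 0.55 from WT RIP, and 3.67 ± 0.62 and 3.88 ± 0.55 from IgG RIP, each pair closer together than 1 SE.

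Celf2 had 0.54, -0.67 and 0.01 in HuD RIP, -0.95, -1.15 and -1.10 in WT RIP and -1.41, -1.32 and -1.68 in IgG RIP. Each group kept to its own range without overlap, in the order HuD RIP, WT RIP, IgG RIP. The differences of 1.03 ± 0.33 and 1.43 ± 0.33 were nonetheless among the smallest of the 54. Celf4 differed from WT RIP by 2.20 ± 0.30 and from IgG RIP by 2.10 ± 0.30.

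Heterogeneous nuclear ribonucleoproteins package nascent transcripts and act on splicing, transport and decay. Hnrnpu 1 had -0.37, -1.57 and -0.62 in HuD RIP, -2.90, -4.78 and -4.19 in WT RIP and -3.86, -3.94 and -4.51 in IgG RIP. Hnrnpu 2, a circle elsewhere in the gene, had 0.98, 0.00 and 0.84 in HuD RIP, -0.89, -3.25 and -5.64 in WT RIP and -2.22, -1.97 and -2.09 in IgG RIP. Its WT RIP arrays were spread over more than 4 log2 units, the widest among the 54. Only 1 of them was well above background, and WT RIP 3 lay at the lowest value of the scanner software. The spread is therefore not a measured range. Its IgG RIP arrays lay close together, all well above background.

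Hnrnpab 1 had -0.85, -1.34 and -1.0 in HuD RIP, -3.71, -5.37 and -4.23 in WT RIP and -3.64, -5.14 and -3.96 in IgG RIP. Hnrnpab 2 had 0.03, -0.90 and -0.31 in HuD RIP, -3.25, -4.43 and -4.08 in WT RIP and -4.89, -4.91 and -3.45 in IgG RIP. HuD RIP lay above every control array in both, at least 3.72-fold and at least 5.93-fold over IgG RIP. Hnrnpul2, a relative of Hnrnpu, had -1.54, -2.32 and -1.21 in HuD RIP, -3.43, -5.37 and -5.48 in WT RIP and -3.79, -3.02 and -4.85 in IgG RIP, and stood only in the table against WT RIP. Hnrnpd (AUF1) binds AU-rich elements, as HuD does, and promotes decay. Its difference from WT RIP was 4.61 ± 0.62, and HuD RIP was at least 11.9-fold higher than IgG RIP. For Hnrnpr, Hnrnpul1 and the splicing factor Srsf1 the differences from WT RIP were 2.80 ± 0.62, 1.40 ± 0.36 and 3.08 ± 0.74.

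The 8 circRNAs of translation and decay factors had HuD RIP minus WT RIP differences from 2.38 to 4.71. None overlapped with WT RIP (background 21.7% of all probes tested, and 618 of the 737 listed) or with IgG RIP (34.8% and 732). Of the 8, 5 were well above background on no control array. Cpeb2, whose protein binds cytoplasmic polyadenylation elements and regulates translation in neurons, is shown by its junction.
Cpeb2: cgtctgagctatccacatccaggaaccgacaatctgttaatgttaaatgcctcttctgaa

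Cpeb2 (chr5:43237306-43261784, plus strand) had 0.74, -1.40 and -0.24 in HuD RIP, -4.01, -5.37 and -5.64 in WT RIP and -5.15, -4.84 and -4.99 in IgG RIP. It was not well above background on any control array. HuD RIP was at least 10-fold higher than WT RIP and at least 6.34-fold higher than IgG RIP, the greatest of the 8 bounds that could be set against WT RIP.

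Cnot2 and Cnot7 belong to the CCR4-NOT complex, which shortens poly(A) tails, Cnot2 as a scaffold and Cnot7 as a deadenylase. Cnot2 1 had -1.75, -3.21 and -2.17 in HuD RIP, -5.95, -5.37 and -5.64 in WT RIP and -5.45, -5.08 and -4.96 in IgG RIP. Cnot2 2 had 0.04, -0.95 and 0.15 in HuD RIP, -2.46, -4.08 and -5.62 in WT RIP and -4.59, -2.92 and -4.14 in IgG RIP. Cnot2 2 was well above background on 1 WT RIP array and Cnot2 1 on no control array. Cnot2 3 had -1.21, -2.31 and -1.55 in HuD RIP, -3.96, -4.86 and -5.64 in WT RIP and -3.49, -5.09 and -3.84 in IgG RIP. The bounds over WT RIP were at least 2.38-fold for Cnot2 1, at least 3.79-fold for Cnot2 3 and at least 3.41-fold for Cnot7.

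Eif4h, which stimulates the helicase of the cap-binding complex, gave a circle of 91 bases, with -0.18, -1.67 and -0.55 in HuD RIP, -2.63, -4.03 and -4.14 in WT RIP and -3.90, -4.26 and -5.04 in IgG RIP. The groups did not overlap. Ddx3y, a Y-linked DEAD-box helicase, differed from WT RIP by 2.38 ± 0.64.

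**Figure D4:**
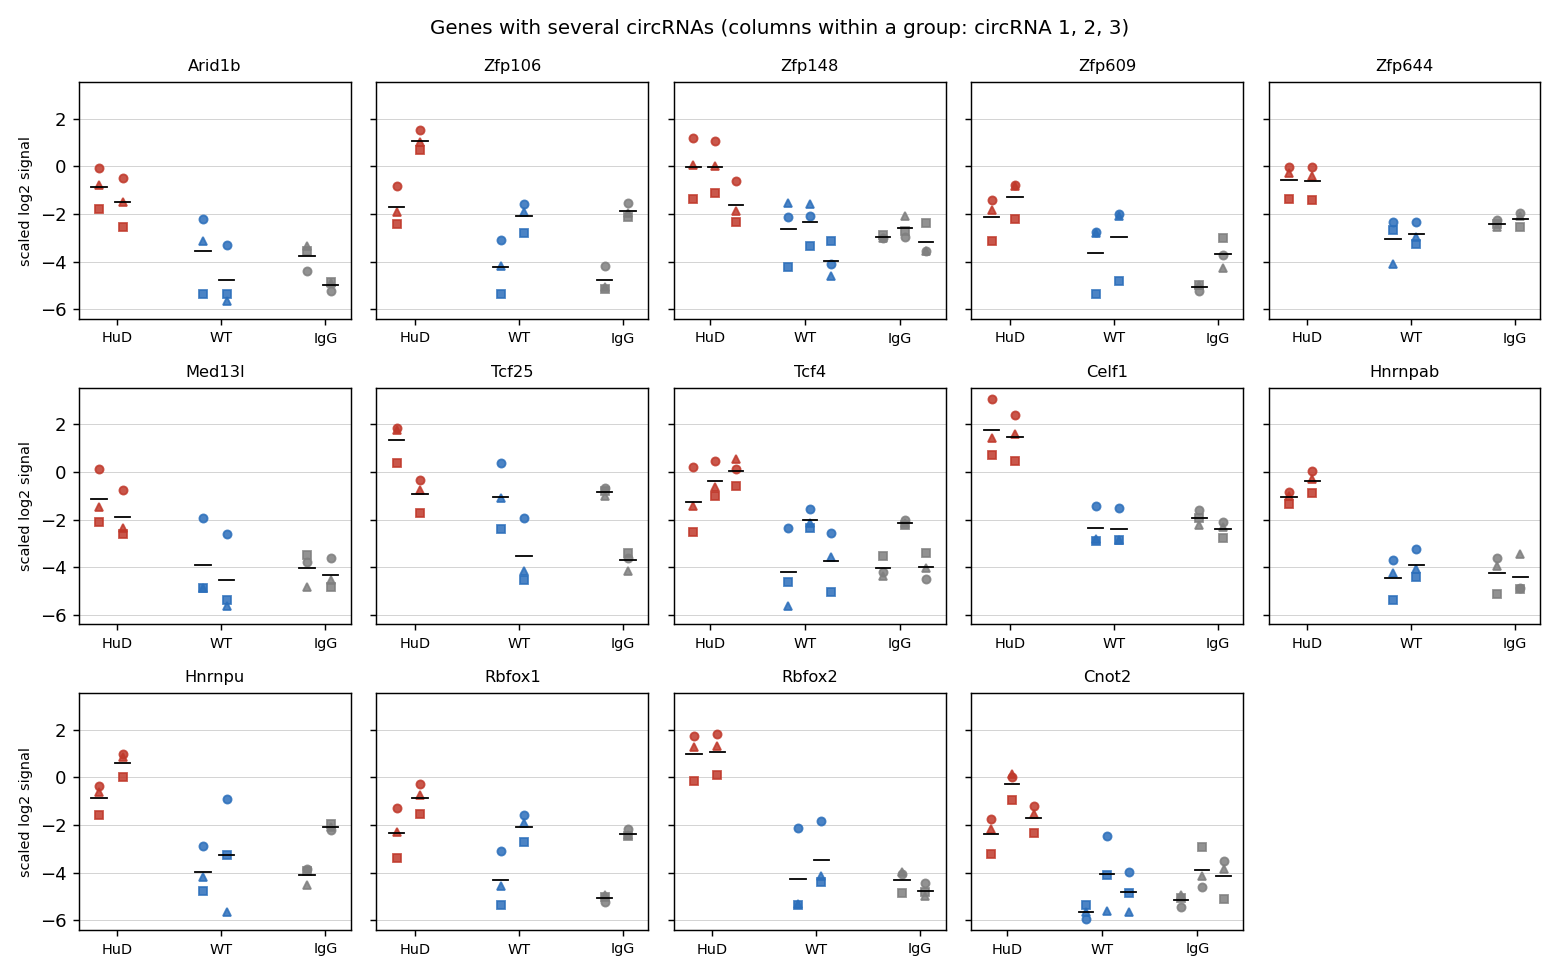
Scaled log2 signal (y axis) for the 14 genes with 2 or 3 circRNAs among the 54, with groups on the x axis. Within a group each column is 1 circRNA, symbols are replicates 1 (circle), 2 (square) and 3 (triangle), and lines are means. In all genes but Zfp609, Med13l, Tcf4 and Rbfox1, the HuD RIP arrays of every circRNA lie above every control array, as their choice favoured. Over all 6871 probes tested, HuD RIP arrays lay above those of WT RIP for 21.7% and of IgG RIP for 34.8%.

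**Figure D5:**
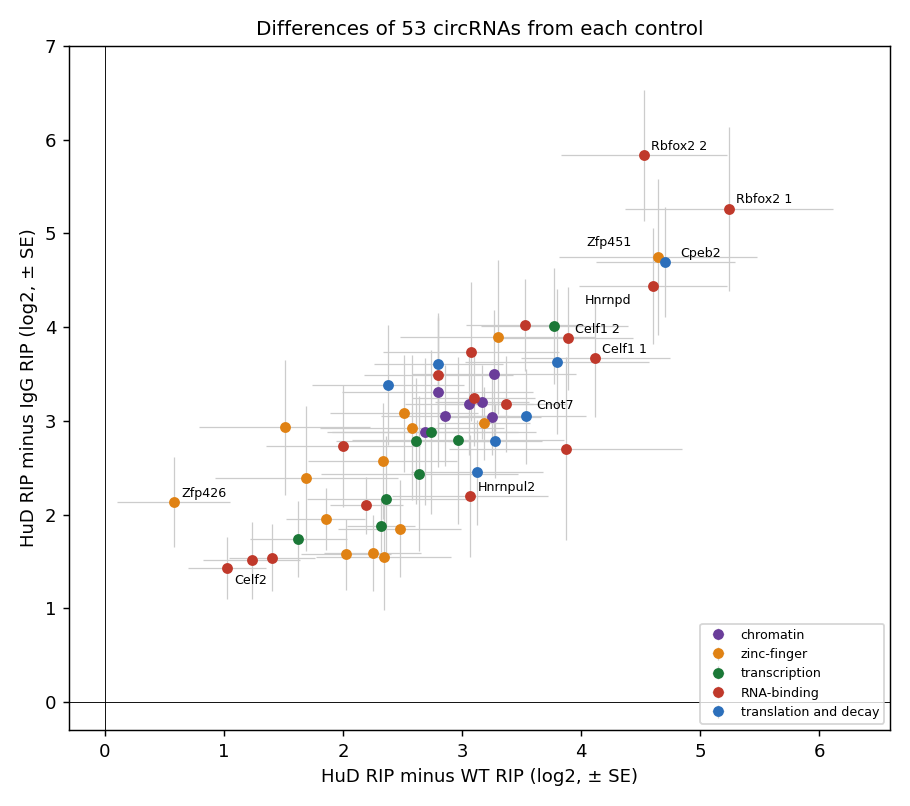
HuD RIP minus WT RIP (x axis) and HuD RIP minus IgG RIP (y axis) in log2 units for 53 of the 54 circRNAs, with bars of ± SE, coloured by role. Both axes use the same HuD RIP arrays, and Rbfox2 1 and 2 lie farthest out, Zfp426 is lowest on the x axis and Celf2 on the y axis. Points against controls at background mark no measured level. With scaling on all probes Zfp426 falls below 0 on the x axis, and with normexp 3 of all 54 circRNAs fall below 0 on the x axis and 15 on the y axis (1 and 9 with each array's percentile as a covariate).

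Related host genes outside the prefixes were looked at through lists of other chromatin and RNA-binding genes, chosen with earlier results of these data known. Of 24 chromatin genes, 5 hosted a listed circRNA, among them Brwd1, Crebbp, Nsd1 and Satb1. Their HuD RIP minus WT RIP differences had a median of 3.25, with the lowest, 1.38, in Brwd1. Of 28 RNA-binding genes, 12 hosted 15 listed circRNAs, including those of Qk, Fmr1, Mbnl1, Mbnl2, Matr3, Msi2 and Stau2, with a median of 2.81 and a range from 1.20 to 4.05. These circRNAs were listed because HuD RIP exceeded a control, so nothing is read from their differences from WT RIP. In WT RIP against IgG RIP, 0 of the 5 and 0 of the 15 passed limma's test (background 0.0146% of probes, 1 of 6871). Their medians were 0.09 and 0.25, against 0.06 over all probes tested. Most of them were not detected in IgG RIP, and those of Crebbp, Nsd1 and Msi2 in neither control. The counts of 0 therefore say little about them. Of 12 markers of striatal projection neurons, Arpp21, Bcl11b and Foxp1 hosted 7 listed circRNAs and the others none. Of 8 markers of glia none did. Gene names are given only for circRNAs chosen as higher in HuD RIP, so these lists do not check the tissue label.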

How the data were processed

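The deposited scanner files of 9 arrays (1 colour, Arraystar Mouse circRNA Array V2, 3 per group) hold spot intensity values that, per the file headers, Feature Extraction 11.0.1.1 background-subtracted and detrended. The authors also deposited 2 tables of their normalised log2 values with fold changes, p-values and false discovery rates. Those statistics were not used, and the log2 values served only for the values next to the limit of the tables. Their 12 columns of uncorrected signals per sample were not used. Processed signals were put on the log2 scale and each array's 75th percentile over the 2594 probes well above background on all 9 arrays was subtracted. Outlier spots (269 values) were left out and spots of a probe were averaged. Probes detected well above background in 3 or more of 9 arrays (6871) were fitted with limma 3.58.1 in R 4.3.3 (lmFit and eBayes, 1 mean per group, all 9 arrays), with Benjamini-Hochberg adjustment and a threshold of 0.05. The fit was tested on simulated data. Nothing shows that the RIP assays of a group came from separate pools of mice, so p-values measure the spread between these samples. The circRNAs, gene lists and tests were chosen with earlier results of these data known. Values on every array are given for the 3 circRNAs of each role with the highest mean in HuD RIP, genes with several circRNAs, the named deacetylases, and the 3 largest and smallest differences. For the others differences are given. A circRNA of Upf2 was not analysed here. Counts and medians cover all 54 circRNAs, but 1 of them is not reported here by itself or drawn one by one, and nor is 1 gene of the added chromatin list. Alternatives changed the scaling, background correction, filter, samples, blocks and test.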

Additional observations from a re-analysis of the deposited data

How the results depend on the processing

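WT RIP against IgG RIP kept 0 of the 54 circRNAs called under every alternative run, beside 0 to 26 of all probes tested. Its median difference moved from 0.11 to -0.78 with the row on the slide as a block and to -0.71 with the array's 75th percentile as a covariate. It ran from -0.45 to 0.46 when 1 array was left out, with a count of 0 throughout (limma, 1 to 6 unadjusted). For HuD RIP against WT RIP, the median (2.80) moved to 0.47 with normexp (offset 50), 0.72 with uncorrected, quantile-normalised signals and 1.82 with the covariate. Its count (44) moved to 13 with normexp, 6 of the 10 left by a filter for detection on all arrays, 29 with only the groups compared, 13 with the covariate, and 0 with the methods' t-test (41 unadjusted). For HuD RIP against IgG RIP, the median (2.93) moved to 2.12 with scaling on all probes, 2.16 with cyclic loess, 4.34 without scaling, 0.25 with normexp, 0.73 with uncorrected signals, 2.12 with detection on all arrays and 1.05 with the covariate. Its count (51) moved to 17 with normexp, 10 of 10 with detection on all arrays, 32 with slide as a block, 0 with the covariate (12 unadjusted) and 20 with the t-test (53 unadjusted). Over all probes the count against WT RIP (1033) moved to 130, 94 of 2594, 544, 342 and 0 in the same order of settings. Against IgG RIP the count over all probes (1509) moved to 347, 219 of 2594, 759, 68 and 391. Slide as a block sets IgG RIP 3 apart, so it is the same fit as leaving that array out. The cause was not tested, except that the filter for detection leaves fewer circRNAs. No other offset of normexp was run.

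Leaving out 1 array gave 25 to 51 called against WT RIP and 30 to 53 against IgG RIP, with medians of 2.43 to 3.43 and 2.50 to 3.33. Against WT RIP the count was 26 without HuD RIP 1, 25 without HuD RIP 3 and 30 and 29 without WT RIP 2 and WT RIP 3. Against IgG RIP it was 34 without HuD RIP 1, 30 without HuD RIP 3, and 33, 32 and 32 without IgG RIP 1, 2 and 3. Over all 6871 probes, leaving out 1 array gave 476 to 1720 called against WT RIP and 628 to 2133 against IgG RIP.

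In HuD RIP minus IgG RIP, 15 circRNAs were below 0 with normexp and 9 with the covariate. Among them, those that are given array by array and were called in the fit as reported were, with normexp, Hdac2 (-0.13), Hdac4 (-0.02), Setd7 (-0.08), Zfp106 1 (-0.05), Zfp609 1 (-0.13), Hnrnpul2 (-0.10), Rbfox1 1 (-0.19), Cnot2 1 (-0.26) and Cnot2 3 (-0.11). With the covariate they were Zfp148 1 (-0.06), Med13l 1 (-0.73), Tcf25 1 (-0.30), Tcf4 1 (-0.66), Tcf4 2 (-0.01), Rbfox1 1 (-0.04) and Rbfox1 2 (-0.13).

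Whether replicate numbers pair the samples is not settled. Same-numbered arrays correlated in their deviations by 0.65, 0.56 and -0.10 for HuD RIP with WT RIP, and by -0.03 to 0.10 for the other pairs of groups. With the replicate block 50 were called against WT RIP, 53 against IgG RIP and 0 between the controls, with medians of 2.80, 2.93 and 0.11. Over all 6871 probes the block gave 1527 against WT RIP (1033 without it) and 2004 against IgG RIP (1509 without it).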
